A study of Mus musculus with 20 samples.

Results

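The gene desert measured here is a stretch of mouse chromosome 5, chr5:133305260-133503397 in assembly mm9, that the study used as a negative control in a chromosome conformation capture carbon copy (5C) experiment. Its members were chosen by position: all pairs of a forward and a reverse primer that both lay in the desert, measured in all 10 5C libraries. The desert held 50 of the 1551 primers, 25 forward and 25 reverse, and these gave 625 of the 97243 forward and reverse pairs that lay within one region. No measured value entered the choice. None of the transcript models for which the authors deposited coordinates overlapped the desert.

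In 5C, cross-linked chromatin is cut with a restriction enzyme, here HindIII, and fragments that lay close together in the nucleus are ligated to each other. A forward primer on one fragment and a reverse primer on another are joined only where both fragments were ligated, so the count of a pair reports how often its fragments met. Chromatin is a flexible polymer, and contact counts therefore fall with the distance between fragments along the chromosome even where no loop or boundary exists. A region without genes shows this decay, the spread between libraries and the yield of each primer without the promoter and enhancer contacts that the study's other regions were picked for.

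The study asked how chromatin folding changes when neural cells are reprogrammed. The 5C groups were V6.5 embryonic stem (ES) cells, a male line of strain 129SvJae x C57BL/6, in medium with serum and LIF (group ES), and the same line in serum-free medium with LIF and the kinase inhibitors CHIR99021 and PD0325901 (group ES_2i). Group NPC held primary neural progenitor cells from whole brains of Sox2-eGFP mice of the same strains at postnatal day 1, grown as neurospheres and then plated for 1 day. Groups iPS and iPS_2i held induced pluripotent stem cells made from such Sox2-eGFP NPC, in serum with LIF or in the 2i medium. The pluripotent cells were grown on fibroblast feeders treated with Mitomycin-C and passaged on gelatin before harvest to remove them, and 5C cells were fixed in 1% formaldehyde. Each group had 2 libraries. The labels do not say that replicates were separate cultures, animals or iPS lines, so each p-value here measures only the spread between these libraries, which may be technical.

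The 10 libraries held 10508118 to 26533530 counts, and both ES libraries were the deepest. Desert pairs received 187775 to 481165 of them. A desert pair had a mean of 300.4 to 770 counts, against 1.30 to 6.44 for a pair that joined a desert fragment to one of the 6 other regions, all on other chromosomes, a ratio of 74.1 to 306 in the single libraries. No desert pair was at 0 in every library, and 8 were at 0 in at least 1. In RNA libraries of the same 5 groups, which were other samples than the 5C libraries, 4 matched markers of ES and iPS cells (Pou5f1, Dppa5a, Tdh, Utf1) summed to 3409 to 5764 counts per 1000000 model counts (CPM) in the pluripotent groups. They had 0 counts in both NPC libraries, which allows up to 2.61 and 0.823 CPM for a single gene (3 counts). The 4 matched NPC markers (Olig1, Olig2, Ncan, Nes) summed to 6297 and 7812 CPM in NPC and to 32.2 to 79.3 elsewhere, with Nes at 3.02 and 3.80 CPM in NPC. Markers of feeder fibroblasts (Col1a1, Col1a2, Col3a1, Acta2, Tagln, all 5 matched) summed to 1251 and 1346 CPM in ES, 449.6 and 466 in ES_2i, 12.8 and 26.6 in NPC, 2670 and 2852 in iPS and 891 and 910.0 in iPS_2i. Of the neuronal markers only Tubb3 was matched, at 31.7 to 944 CPM, and of the astrocyte markers only S100b, at 0 to 5.28 CPM.

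Contacts inside the desert were dominated by the shortest distances, and the decay was steepest in NPC. Fragment midpoints of the 625 pairs lay 0.595 to 195.5 kb apart, with a median of 60.2 kb. The 63 nearest pairs, at 0.60 to 8.58 kb, include all 45 pairs of neighbouring fragments, and they took 84.1% and 81.7% of desert counts in NPC but 58.6% and 63.0% in iPS. At the far end, the 62 pairs at 146.1 to 195.5 kb took 0.59% and 0.69% in NPC and 2.25% and 2.06% in iPS. Both NPC libraries thus had the largest share near and the smallest share far among the 10.

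Mean counts per pair show the same in the units of the files. In NPC replicates 1 and 2 the mean fell from 5676 and 6242 counts in the nearest group of pairs to 404 and 500.0 in the next, at 8.59 to 21.0 kb, and to 40.2 and 53.9 in the farthest. In iPS the same 3 groups of pairs had 1765 and 2004, then 278 and 272, then 68.9 and 66.5 counts. The NPC libraries were above iPS at the nearest distances and below them at the farthest.

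The slope of the log2 mean count on the log2 distance, over 10 groups of pairs of equal size, was taken as the decay; a slope of -1 means that the count falls by as much as the distance grows. It was -0.945 and -0.864 in ES, -1.11 and -1.04 in ES_2i, -1.25 and -1.20 in NPC, -0.782 and -0.827 in iPS and -1.06 and -0.936 in iPS_2i. NPC had the steepest slopes and serum-grown iPS the shallowest, and neither group overlapped another. The slopes of ES, ES_2i and iPS_2i did overlap or touch at their ends, with ES replicate 1 steeper than iPS_2i replicate 2.

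Groups accounted for 93.3% of the variance of the slopes (exact permutation test over all ways to form 5 pairs of libraries, p = 0.00423, adjusted p = 0.0222 over the 6 tests of this family). The NPC mean was -1.23 ± 0.035 (SD, n = 2) against -0.945 ± 0.117 (n = 8) in the pluripotent libraries, a difference of -0.284 (exact permutation test, two-sided, p = 0.0222, the smallest that 45 arrangements allow, adjusted p = 0.0333). The 2i libraries were steeper than the serum libraries, -1.04 ± 0.073 against -0.855 ± 0.069 (n = 4 each), but this difference of -0.182 did not pass the test (exact permutation test, two-sided, p = 0.0571, adjusted p = 0.0686). The iPS and iPS_2i libraries differed from ES and ES_2i by 0.089 (exact permutation test, two-sided, p = 0.314 for n = 4 against 4). Without pairs under 20 kb the NPC difference shrank to -0.112 and no longer passed (exact permutation p = 0.0889); without ES replicate 2 it was -0.272 (exact p = 0.0556), and without either NPC library no p below 0.111 was possible, with differences of -0.259 and -0.309.

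**Figure D1:**
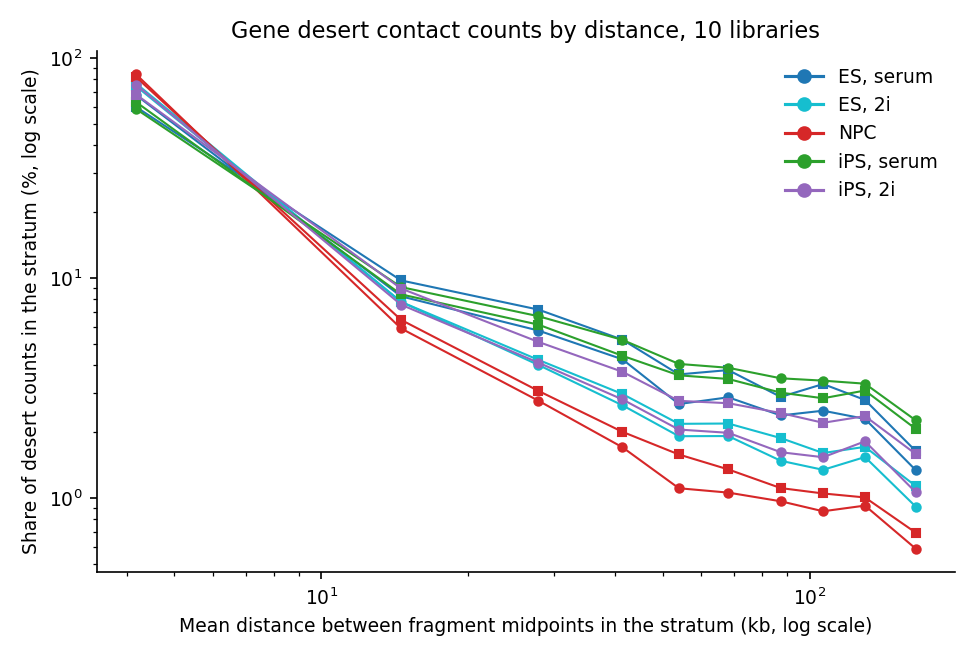
Share of a library's desert counts in each of 10 groups of pairs, in percent, against the mean distance between fragment midpoints in kb, both on log axes, with 1 line per library coloured by group (circles for replicate 1, squares for replicate 2). The NPC lines start highest and end lowest, at 84.1% and 81.7% and at 0.59% and 0.69%, and the iPS lines end highest.

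**Figure D2:**
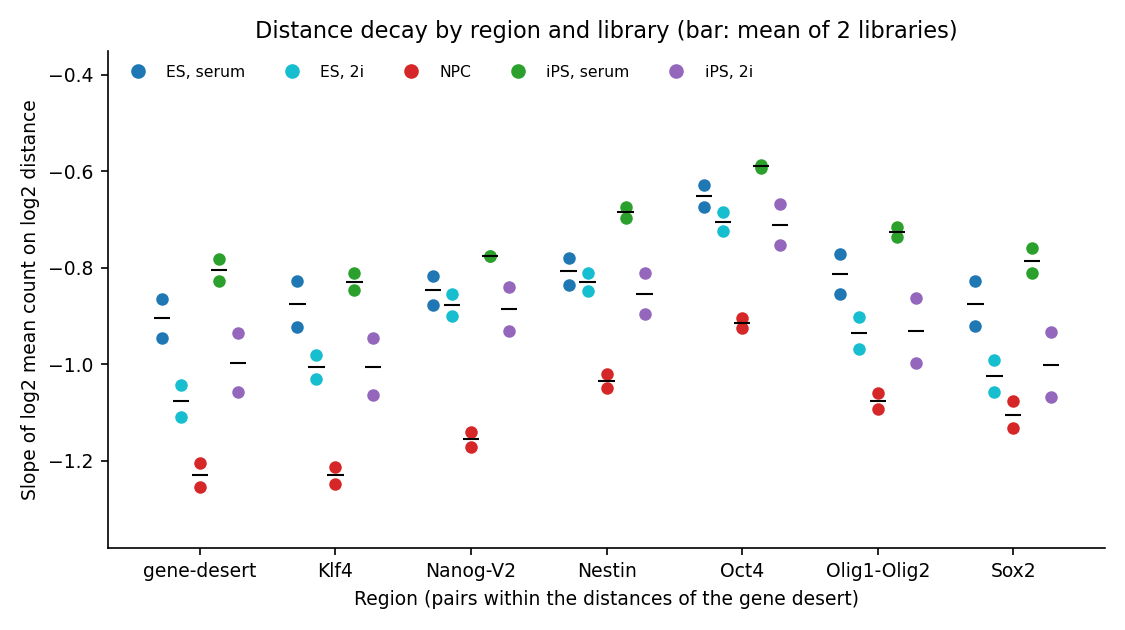
Slope of the decay in the desert and in the 6 other regions over the same range of distances, with regions on the x axis, 1 point per library coloured by group and a bar at the mean of the 2 libraries. The desert points run from -1.25 in NPC to -0.782 in iPS, and NPC has the lowest and serum-grown iPS the highest group mean in all 7 regions shown.

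The share of desert counts on pairs under 40 kb, 207 of the 625 pairs, gave the same order. It was 83.0% and 78.2% in ES, 89.0% and 87.2% in ES_2i, 93.3% and 91.8% in NPC, 75.7% and 78.8% in iPS and 87.9% and 83.3% in iPS_2i. NPC stood above all other libraries and the serum-grown groups overlapped each other (exact permutation test over all such pairings, p = 0.00741, adjusted p = 0.0222). The fibroblast marker sums were lowest in NPC, higher in the 2i groups and highest in the serum groups. Between serum and 2i this order followed Acta2 and Tagln. Col3a1 went the other way, at 16.7 and 19.1 CPM in ES against 121 and 122 in ES_2i. In iPS it had 95.4 and 119 CPM, against 232 and 227 in iPS_2i. Col1a2 was also higher in ES_2i than in ES, and Col1a1 overlapped there. Both were higher in iPS than in iPS_2i. The part of these markers in the order of the slopes was not tested.

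The desert as a whole took a larger part of the counts in NPC than elsewhere. Of all counts on pairs within a region, desert pairs held 1.67% and 1.43% in ES, 2.41% and 2.14% in ES_2i, 3.38% and 3.67% in NPC, 1.72% and 1.86% in iPS and 2.42% and 1.90% in iPS_2i. Both NPC libraries were above the other 8, and the ES_2i and iPS_2i values overlapped (exact permutation test over all such pairings, p = 0.0116, adjusted p = 0.0233). The desert is shorter than the other regions. With the other regions limited to distances that occur in the desert, it held 4.03% and 4.36% in NPC and 1.89% to 3.00% in the other libraries, so NPC was above the other 8 there too. Only the range of distances was matched and not their distribution within it, and the part of the steeper decay in these shares was not tested.

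**Figure D3:**
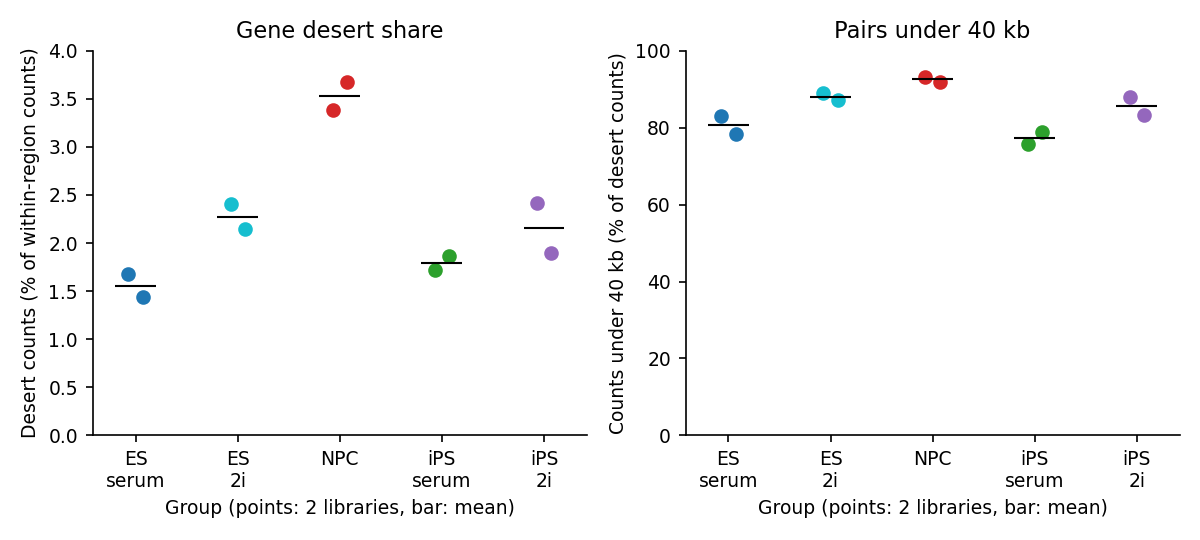
Left, desert pairs as a percentage of all within-region counts; right, the percentage of desert counts on pairs under 40 kb, with 1 point per library and a bar at the group mean. The NPC points are the highest in both panels, at 3.38% and 3.67% and at 93.3% and 91.8%.

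Decay in the desert was steeper than in 5 of the 6 regions with genes. Over the same range of distances, the mean slope of the 10 libraries was -1.002 ± 0.159 (SD) in the desert, -0.989 around Klf4, -0.958 around Sox2, -0.908 around Nanog, -0.895 around Olig1 and Olig2, -0.842 around Nestin and -0.714 around Oct4. The groups of pairs were formed in each region by itself, so the distribution of distances within that range was not matched. Its part in the differences between regions was not tested. The desert minus the Oct4 region was -0.288 ± 0.059 and minus the Nestin region -0.160 ± 0.060, with a steeper desert in 10 of 10 libraries in both (exact sign-flip permutation test, two-sided, adjusted p = 0.00293 over 6 regions). It was also steeper in 10 of 10 libraries against the Nanog and the Olig1-Olig2 regions (-0.094 and -0.107, exact adjusted p = 0.00293) and in 9 of 10 against Sox2 (-0.044, exact adjusted p = 0.00703). Against Klf4 the difference was -0.013 with 5 of 10 libraries on each side (exact adjusted p = 0.281).

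These differences rested on the shortest contacts. With neighbouring fragments left out, the Oct4 difference was -0.150 and still passed. The others were then -0.0337 for Nestin, -0.0331 for Olig1-Olig2, -0.0347 for Sox2, -0.00234 for Nanog and 0.0162 for Klf4, none past the threshold. Without pairs under 20 kb the desert was shallower than every other region, by 0.0018 to 0.122. All libraries were made with 1 set of primers, so the test speaks of these fragments and not of deserts in general.

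The group differences of the desert slope ran alongside those of the other regions. The mean slope of the 6 other regions differed by -0.252 between NPC and the pluripotent libraries (exact permutation test, two-sided, p = 0.0222). The desert slope minus that mean, a measure added after the data had been seen, was -0.098 and -0.089 in ES, -0.188 and -0.172 in ES_2i, -0.152 and -0.136 in NPC, -0.059 and -0.089 in iPS and -0.106 and -0.092 in iPS_2i. On this relative scale NPC lay within the range of the pluripotent libraries, with a difference of -0.032 (exact permutation test, two-sided, p = 0.333). The ES_2i libraries were the farthest from the other regions, and the 5 groups still accounted for 94.5% of the variance (exact permutation test over all such pairings, p = 0.0032, adjusted p = 0.0127 over 4 tests); the 2i and serum libraries differed by -0.056 (exact p = 0.0571, adjusted p = 0.114).

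Beyond distance, most of the spread among desert pairs belonged to single fragments. The SD of log2 counts over the 625 pairs was 1.61 to 2.29 in the 10 libraries, 0.99 to 1.41 once the distance trend was taken out, and 0.55 to 0.78 once a term for each forward and each reverse primer was taken out as well. Fragments varied from 317 bp to 10364 bp in length around a median of 2744 bp. The 3 primers with the largest mean share of desert counts, each count being shared by 2 primers, were FOR_47 (chr5:133437663-133439818) with 11.2%, FOR_14 (chr5:133308828-133313224) with 9.23% and REV_54 (chr5:133459117-133463501) with 8.33%. The smallest were REV_60 (chr5:133480794-133487486) with 0.185%, FOR_30 (chr5:133368149-133368465), the shortest fragment, with 0.846% and REV_31 (chr5:133368467-133371511) with 1.14%.

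REV_60 was low in all 10 libraries, between 0.142% and 0.264%. FOR_47 was highest in ES, at 13.9% and 14.4%, against 9.85% to 11.6% in the other 8 libraries. Both ES libraries thus lay above all others for FOR_47.

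The 5 pairs highest above the distance trend stood less far above it once the yield of their primers was allowed for. Of the pairs of fragments that are not neighbours, FOR_22 with REV_25, 9.33 kb apart, had the highest observed count over the mean at its distance, 4.65-fold as the mean of the group means and 3.38-fold to 6.33-fold in the libraries. Its counts were 3691 and 3588 in ES, 1813 and 1539 in ES_2i, 2335 and 2370 in NPC, 1606 and 1062 in iPS and 1779 and 1475 in iPS_2i, so every library was far above the trend. FOR_14 with REV_54, 150.3 kb apart, had 3.92-fold, FOR_53 with REV_25 3.61-fold, FOR_53 with REV_64 3.58-fold and FOR_22 with REV_50 3.48-fold. With primer terms in the expected count these 5 pairs stood at 1.39-fold, 1.20-fold, 1.08-fold, 1.12-fold and 1.03-fold.

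At the low end all 3 pairs contained REV_60: with FOR_63 at 0.024-fold, with FOR_70 at 0.041-fold and with FOR_55 at 0.047-fold. With primer terms these were 0.82-fold, 0.98-fold and 0.65-fold. The 5 highest and 3 lowest pairs were thus closer to the count expected with primer terms. They had been picked as extremes, and the primer terms were fitted to the same counts, these pairs among them. A move towards the expected count was therefore partly built in, and no conclusion is drawn from it.

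Contacts across each point of the desert stayed close to the number expected. The mean observed over expected count of pairs that span a point, taken with primer terms and a window of 60 kb at steps of 5 kb, lay between 0.785 and 1.09 in the single libraries. A boundary between domains appears in such a profile as a dip, since contacts across it are rarer. The mean over the groups stayed between 0.88 and 1.05, with its lowest value 145 kb from the first position. The expected counts were fitted to the same desert counts, which holds the profile near them and can take up part of a dip. The profile therefore cannot decide whether the desert holds a boundary.

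Libraries of one group resembled each other more than libraries of different groups, but not by much once primers were allowed for. The median absolute log2 ratio of distance-corrected counts between replicates was 0.240 in ES, 0.384 in ES_2i, 0.380 in NPC, 0.306 in iPS and 0.319 in iPS_2i. Between libraries of different groups it ran from 0.254 to 0.665 with a median of 0.443 over 40 library pairs, so the ranges overlapped. With primer terms the replicate values were 0.212 to 0.293 and those between groups 0.213 to 0.392, with a median of 0.274. In the 6 other regions together, replicates differed by 0.267 to 0.396 and libraries of different groups by 0.315 to 0.680.

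Single desert pairs were called in 17.3%, 7.73% and 16.3% of cases between ES and NPC, iPS or ES_2i, and in 1.32% between iPS and NPC. The difference of these shares from those of the whole series was not tested. Counts were tested pair by pair with edgeR's quasi-likelihood test, which allowed for depth and for the distance trend of each library and region, and p-values were adjusted over all 75889 tested pairs of the series. Of the 625 desert pairs 608 reached the mean count of 10 needed for the test. A pair was called at an adjusted p under 0.05, and a call is a change relative to other desert pairs at like distance.

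Between NPC and ES, 105 of 608 desert pairs were called, 64 higher and 41 lower in NPC. The share called in the whole series was 17.8% (8.53% higher and 9.32% lower), and 24.8% of 27648 pairs of the other regions at distances of the desert were called, against 17.3% of the desert pairs. Without the correction for distance and region, by TMM scaling alone, 206 desert pairs were called, 195 higher and 11 lower, or 33.9% of the desert against 19.6% of the series. This scaling drops the correction for the region's total and that for distance together, and their parts in the change were not told apart. The 5 called pairs with the largest change all contained REV_40. For FOR_45 with REV_40, 35.0 kb apart, the counts were 35 and 49 in ES, 125 and 136 in ES_2i, 112 and 213 in NPC, 81 and 153 in iPS and 68 and 108 in iPS_2i, although the ES libraries were the deepest. Both ES libraries were thus below all others, and the log2 change in NPC was 2.96 ± 0.43 (SE, edgeR adjusted p = 8.57e-05). FOR_67, FOR_16, FOR_20 and FOR_70 with REV_40 changed by 2.74, 2.62, 2.58 and 2.50 on the log2 scale.

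Between iPS and ES, 47 desert pairs were called, 38 higher and 9 lower in iPS, where the share over the series was 5.19% (3.72% higher and 1.47% lower). In the other regions at distances of the desert it was 7.88%, close to the 7.73% of the desert. REV_40 was again in 4 of the 5 largest changes: with FOR_67 (2.83), FOR_24 (2.57), FOR_70 (2.44) and FOR_49 (2.43), followed by FOR_70 with REV_48 (2.40). FOR_24 with REV_40 had 16 and 25 counts in ES and 89 and 78 in iPS (log2 change 2.57 ± 0.49, edgeR adjusted p = 0.00322). Leaving out 1 library of these groups gave 2.38 to 2.81 for this pair and 2.14 to 4.23 for FOR_67 with REV_40. Neither kept its call in all of these fits, while FOR_49 with REV_40 did. The NPC and iPS comparisons share the ES libraries, so their calls are not independent of each other.

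Between ES_2i and ES, 99 desert pairs were called, 59 higher and 40 lower in 2i, with 11.8% of the series called (6.53% higher and 5.27% lower) and 16.3% of the desert. In the other regions at distances of the desert the share was 18.1%, above that of the desert. The ES libraries are shared here too. All 5 largest changes contained REV_40, with FOR_45 (2.84), FOR_49 (2.59), FOR_20 (2.54), FOR_33 (2.49) and its neighbour FOR_39 (2.36). The neighbouring pair is the most deeply counted of these. FOR_39 with REV_40 had 907 and 786 counts in ES, 4266 and 4102 in ES_2i, 7231 and 9339 in NPC, 1999 and 2558 in iPS and 2926 and 2370 in iPS_2i (log2 change in ES_2i 2.36 ± 0.22, edgeR adjusted p = 8.42e-07). The ES counts were the lowest of the 10 libraries.

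Between iPS and NPC only 8 desert pairs were called, 7 higher and 1 lower in iPS, or 1.32% of the desert, against 6.91% of the series (4.92% higher and 2.0% lower) and 11.7% of the other regions at matched distances. The 5 largest changes were FOR_70 with REV_25 (1.50), FOR_61 with REV_66 (1.19), FOR_47 with REV_50 (1.09), FOR_70 with REV_66 (1.05) and FOR_41 with REV_44 (-1.04). Most of these are short contacts, and 7 of the 8 called pairs lay under 40 kb. FOR_47 with REV_50, 8.58 kb apart, had 3381 and 2862 counts in NPC and 2009 and 2165 in iPS, so its count was lower in iPS while its level relative to pairs at the same distance was higher. By TMM scaling alone 96 pairs were called, 1 higher and 95 lower, or 15.8% of the desert against 9.73% of the series, so which of the shares was larger turned with the scaling. By TMM FOR_61 with REV_66, FOR_47 with REV_50 and FOR_70 with REV_66 turned to -1.002, -1.14 and -1.13.

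The 2i medium changed no desert pair past the threshold in iPS cells. Between iPS_2i and iPS edgeR called 0 of 608 pairs, with 17 at an unadjusted p under 0.05, and DESeq2 also called 0; 0.0514% of the series was called. Between iPS_2i and ES_2i it called 0 pairs, with 37 at an unadjusted p under 0.05 and 0 by DESeq2, and 0.0% of the series. FOR_22 with REV_21 had the smallest p between iPS_2i and iPS (1095 and 1230 counts in iPS, 4441 and 1948 in iPS_2i, log2 change 0.88, edgeR adjusted p = 0.268), before FOR_47 with REV_38 (-1.14) and FOR_37 with REV_15 (1.26). Between iPS_2i and ES_2i it was FOR_67 with REV_21 (7 and 18 counts in ES_2i, 62 and 77 in iPS_2i, log2 change 2.44, edgeR adjusted p = 0.976), before FOR_14 with REV_21 (1.19) and FOR_63 with REV_52 (2.36).

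The response to 2i, iPS_2i minus iPS against ES_2i minus ES, differed for 13 desert pairs, 2 higher and 11 lower in iPS cells, with 1.96% of the series called (0.572% higher and 1.39% lower). In the other regions at distances of the desert 3.4% were called, against 2.14% of the desert. REV_40 was in 8 of the 13 desert pairs. The largest were FOR_67 with REV_21 (2.98), and FOR_45 (-2.82), FOR_33 (-2.64), FOR_49 (-2.55) and FOR_39 (-2.43) with REV_40. All of these counts rest on few libraries. In the comparisons with desert calls, fewer pairs of the whole series were also called without any 1 library of the groups compared. The exception was the 2i response without iPS replicate 1, where more were called. Without ES replicate 1, ES replicate 2 or NPC replicate 2 the count between NPC and ES was 53, 49 and 59 in place of 105. Without ES replicate 1 or 2 it was 9 and 20 in place of 47 between iPS and ES and 47 and 25 in place of 99 between ES_2i and ES, and without a library of the other group it was 28 and 18 (iPS replicates 1 and 2) and 34 and 54 (ES_2i replicates 1 and 2). The count of 8 between iPS and NPC became 2 and 4 without NPC replicates 1 and 2 and 0 without iPS replicate 1. The count of 13 for the 2i response became 3 to 6 without any 1 of the ES, ES_2i, iPS_2i libraries or iPS replicate 2, and 18 without iPS replicate 1.

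**Figure D4:**
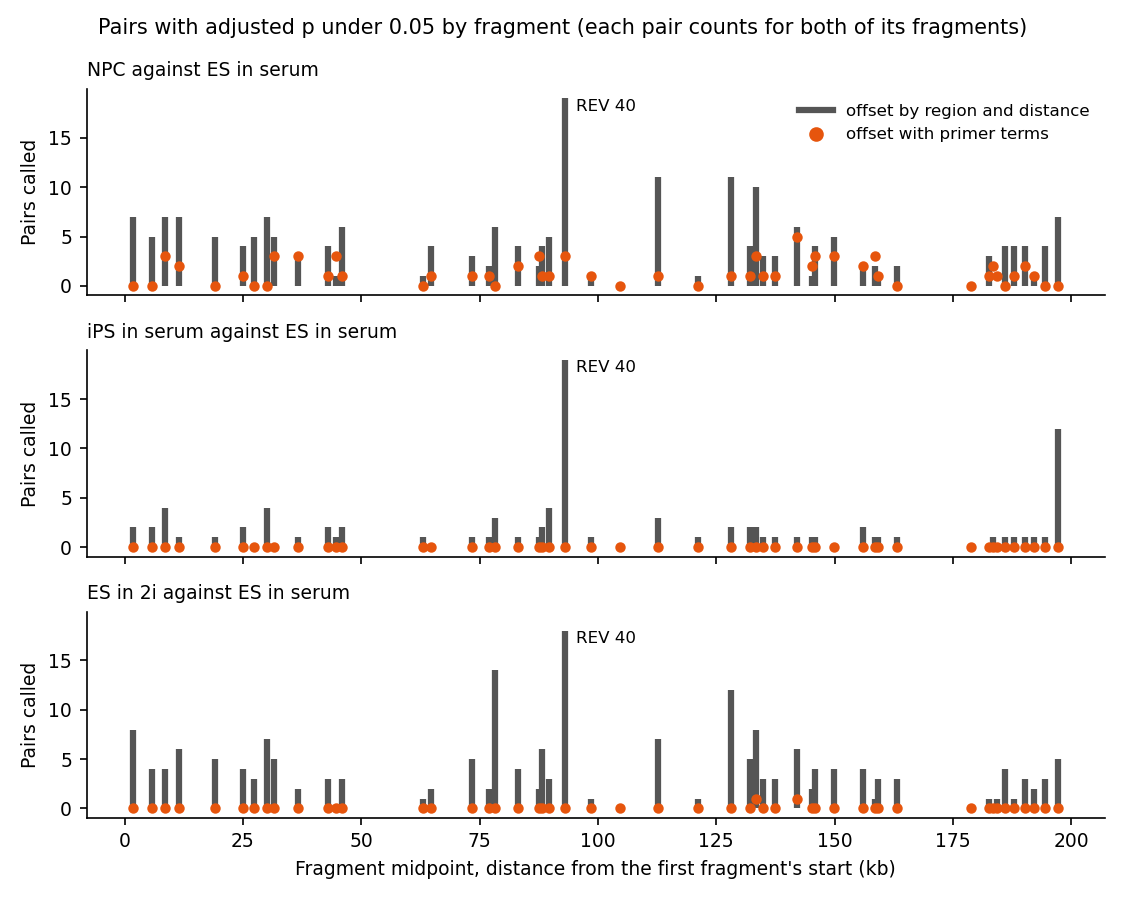
Number of called pairs that contain each of the 50 desert fragments (y axis) against the fragment's distance from the start of the first fragment in kb (x axis), for NPC, iPS and ES_2i against ES, with the distance offset (bars) and with primer terms added to it (points). REV_40 has the tallest bar in each panel, at 19, 19 and 18 pairs, and all points lie at 0 for iPS against ES.

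The calls were spread unevenly over the fragments. Of the 50 desert fragments, 46, 42 and 46 were in any call between ES and NPC, iPS or ES_2i. REV_40 (chr5:133396324-133400512, 4189 bp) was in 19 of the 105 calls between NPC and ES, 19 of the 47 between iPS and ES and 18 of the 99 between ES_2i and ES, and all of these were higher than in ES. The 6 fragments with most calls held 61 of 105 (58.1%, from 140 of the 608 tested pairs), 42 of 47 (89.4%, from 139) and 62 of 99 (62.6%, from 139). They were picked by these same calls, so part of their excess over the tested pairs was built in. FOR_70 (chr5:133501753-133503397) was in 12 of the calls between iPS and ES, all higher in iPS. FOR_35 (chr5:133382756-133384256) was in 14 of the calls between ES_2i and ES and FOR_43 (chr5:133413033-133423014) in 11 of those between NPC and ES, all of them lower than in ES. Without REV_40 the counts were 87, 28 and 80 of 583 desert pairs, and 13512, 3896 and 8927 of 75864 pairs of the series.

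The contacts of REV_40 were lower in ES almost throughout. Of desert counts on fragments that are not neighbours, REV_40 held 1.39% and 1.81% in ES, 4.02% and 4.21% in ES_2i, 3.63% and 3.80% in NPC, 4.35% and 4.22% in iPS and 3.76% and 4.74% in iPS_2i. Both ES libraries were below the other 8. The median log2 change of its 25 pairs was 1.90 between NPC and ES, 2.03 between iPS and ES and 1.71 between ES_2i and ES, and the fitted change was above 0 for 24, 25 and 25 of them, 19, 19 and 18 of which were called.

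The same fragment also held a smaller share of the contacts with other chromosomes in ES. Of counts between the desert and the other regions, REV_40 held 0.640% and 0.634% in ES and 1.26% to 1.88% in the other 8 libraries. Over the 50 desert fragments, the log2 ratio of ES to the other 8 libraries was related between contacts inside the desert and contacts with other chromosomes (Pearson's r = 0.80, Spearman's rho = 0.747 across fragments, which share libraries and depth and are not independent replicates). All 15 fragments that shifted by more than 0.5 (log2) inside the desert shifted to the same side between chromosomes. Of all 50 fragments, 33 did, so the agreement lay mainly in the fragments with large shifts. REV_40 had -1.35 and -1.30, FOR_70 -1.57 and -0.91, FOR_45 -0.81 and -1.09, FOR_35 0.99 and 0.66, and FOR_43 0.91 and 0.65. Each fragment had 161 to 21463 counts with other chromosomes in a library.

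**Figure D5:**
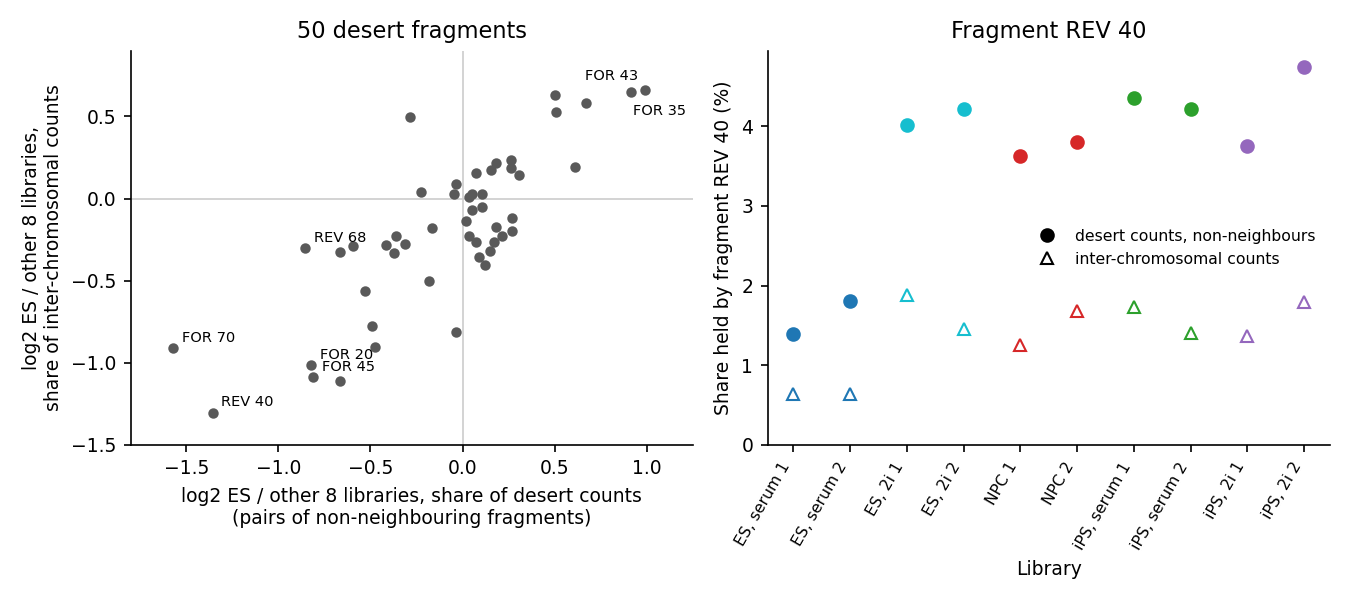
Log2 ratio of the mean share in the 2 ES libraries to that in the other 8, for each of the 50 desert fragments, inside the desert without neighbouring pairs (x axis) and with other chromosomes (y axis). REV_40 and FOR_70 lie at the lower left and FOR_35 and FOR_43 at the upper right; the right panel gives the share of REV_40 in each library by both measures, lowest in ES in both.

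Fewer desert pairs were called against ES once each primer's yield in each library was allowed for, a setting added after the data had been seen. By construction it removes whatever all contacts of a fragment share, whatever its source, and so also a real change that touches all contacts of a fragment. Desert calls were then 33 between NPC and ES (19 higher and 14 lower) and 23 between iPS and NPC (8 higher and 15 lower), where 13.8% and 13.5% of the series were called, against 5.43% and 3.78% of the desert. In the other regions at matched distances the shares were 21.7% and 21.4%. A primer term rests on 25 pairs in the desert and on 94 to 162 in the other regions. It can thus take up more of a single pair's own change in the desert, and the part of this in the lower shares was not tested. Between iPS and ES edgeR then called 0 desert pairs (48 at an unadjusted p under 0.05; 0.0171% of the series) and between ES_2i and ES 1 (0.781% of the series). It called 0 between iPS_2i and iPS (18 unadjusted, 0.0198% of the series), 0 between iPS_2i and ES_2i (16 unadjusted, 0.0%) and 0 for the difference in the 2i response (26 unadjusted, 0.00264%), and DESeq2 was not run with this setting.

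The calls with primer terms were mostly in comparisons with NPC, and NPC was outside the range of the other libraries for some of the pairs only. FOR_24 with REV_21, 12.9 kb apart, had 373 and 452 counts in ES, 203 and 274 in ES_2i, 577 and 650 in NPC, 263 and 261 in iPS and 317 and 327 in iPS_2i. Over the count expected from distance and primers this was 1.53-fold and 1.40-fold in ES, 3.20-fold and 2.84-fold in NPC and 1.22-fold and 1.56-fold in iPS, with 2i libraries between 1.95-fold and 2.61-fold. NPC was thus above all other libraries, with a log2 change of 1.04 ± 0.19 from ES (SE, edgeR adjusted p = 0.00227) and of -1.12 from NPC to iPS (edgeR adjusted p = 0.00144). FOR_37 with REV_15, 79.0 kb apart, rose by 1.91 ± 0.39 in NPC (edgeR adjusted p = 0.00405), from 0.306-fold and 0.275-fold in ES to 0.974-fold and 1.20-fold. It was at 0.378-fold and 0.604-fold in ES_2i, 0.380-fold and 0.577-fold in iPS and 0.854-fold and 0.949-fold in iPS_2i, so iPS_2i came close to NPC. FOR_61 with REV_50 was at 2.86-fold and 2.13-fold in NPC and 1.09-fold and 0.967-fold in ES, but ES_2i replicate 1 had 3.06-fold and iPS_2i replicate 1 had 2.42-fold, so NPC overlapped the 2i libraries.

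FOR_47 with REV_36, 50.4 kb apart, had 531 and 533 counts in ES and 57 and 154 in NPC and fell by 1.12 on the log2 scale (edgeR adjusted p = 0.00428). REV_50 (chr5:133444789-133449848) was the fragment most often in these calls, 5 of 33 between NPC and ES and 9 of 23 between iPS and NPC. FOR_16 with REV_19, 15.8 kb apart, had the highest level with primer terms, 3.84-fold as a mean, with 5.14-fold and 5.38-fold in NPC and 2.69-fold to 4.00-fold in the other libraries. These pairs were picked from the calls with primer terms after their values had been seen.

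The authors' own binned contact values placed the desert lower in several comparisons. These values are on a log scale, read as log2, for windows 20 kb wide that move by 4 kb, so that neighbouring bins share fragments. They are not set relative to the desert's own total, and a difference therefore includes that of the desert as a whole. For bins under 20 kb apart the desert means were 10.2 and 9.74 in ES, 9.58 and 9.83 in ES_2i, 10.0 and 10.2 in NPC, 9.58 and 9.75 in iPS and 9.59 and 9.74 in iPS_2i. From 120 kb on they were 6.23 and 5.92 in ES and 5.62 to 5.90 in the other 8 libraries, so ES was highest there.

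With limma on 152941 bin pairs of the series, of which 1170 lay in the desert, 305 desert bin pairs were called between ES_2i and ES, all lower in 2i, where 20.0% of the series was called. The desert median log2 difference was -0.45 against -0.12 over all bin pairs. Between NPC and ES 168 were called, 44 higher and 124 lower (32.4% of the series; desert median -0.15 against -0.19). Between iPS and NPC it was 54, all lower (21.8% of the series; -0.19 against 0.12), and between iPS and ES 71, 1 higher and 70 lower (4.58% of the series; -0.34 against -0.08). limma called 0 desert bin pairs between iPS_2i and iPS (23 at an unadjusted p under 0.05; 0.000654% of the series), 0 between iPS_2i and ES_2i (24 unadjusted; 0.0%) and 0 for the difference in the 2i response (141 unadjusted; 0.955%). With limma's trend option these 3 counts were 0, 0 and 8, where 0.27%, 0% and 2.22% of the series were called. With only bins that do not overlap, 11 of 55 desert bin pairs were called between ES_2i and ES (18.7% of the series). In this setting 4 were called between NPC and ES (31.2% of the series), 2 between iPS and NPC (21.1%) and 0 between iPS and ES (3.75%). Without ES replicate 1 the count between ES_2i and ES was 14, 1 higher and 13 lower, and without ES_2i replicate 1 it was 24, 1 higher and 23 lower. Without ES replicate 1 the count between NPC and ES was 67, 49 higher and 18 lower, so the calls turned from mostly lower to mostly higher, and the desert median was 0.01. Between iPS and ES it was then 2.

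In the authors' deposited table of contact classes, which was made from the ES, NPC and iPS libraries, 134 of the desert's 1176 bin pairs carried a class. Of these the authors' deposited table gave 115 as background, 15 as ES-only, 3 as NPC-only and 1 as shared by NPC and iPS, and none as constitutive, iPS-only, shared by ES and iPS or shared by ES and NPC. The 19 that were not background are 1.62% of the desert's bin pairs in the authors' deposited table, against 2.07% to 6.19% in the 6 other regions. This order did not hold for each class. The ES-only share was smaller than in the desert around Klf4, Nanog, Nestin and Oct4 (642 of 137550 around Oct4). It was larger around Olig1-Olig2 and Sox2 (651 of 31125 around Sox2). The NPC-only share was smaller in the desert than in every other region, the nearest being Klf4 (195 of 30628). All 15 ES-only entries of the authors' deposited table contained bin 28 (7 entries), one of the bins 34 to 36 (10 entries) or both. Taking the 20 kb window of a bin as centred on it, bin 28 overlaps REV_42, FOR_43, REV_44 and FOR_45. Bins 34 to 36 all overlap REV_50, FOR_51, REV_52 and FOR_53, and bin 34 also overlaps FOR_45 and FOR_47 among others. These fragments did not all go 1 way: the called pairs of FOR_45 were all higher than in ES (11 in NPC, 2 in iPS and 12 in ES_2i). The non-neighbour share of FOR_43 was 6.14% and 5.71% in ES and 2.03% to 3.70% in the other 8 libraries, and that of FOR_53 was 13.4% in both ES libraries and 7.23% to 11.5% elsewhere; the part of these shares in the ES-only classes was not tested.

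The 6 named genes listed nearest to the desert were all called between NPC and ES in RNA level. RNA was counted per transcript model, of which 11767 of 55419 carried a name, and the nearest named models with deposited coordinates on chromosome 5 were Auts2 (chr5:131913551-132014557), Wbscr17 (chr5:131350820-131783392) and Tyw1 (chr5:130732906-130817437) before the desert and Gatsl2 (chr5:134575617-134617628), BC026208 (chr5:134618783-134620111) and Wbscr16 (chr5:134623927-134652637) after it. They ended or began 1072 to 2488 kb from the desert, well beyond its own length of 198 kb. The distance is to the listed model. Other models of these genes, and models without a name, were not used here, so a longer model, of Auts2 among others, or another gene may lie nearer. In RNA from many cells, fewer cells of a type and less RNA per cell cannot be told apart.

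Wbscr17, a member of the family of enzymes that start O-linked glycans on proteins, had 2.77 and 3.14 CPM in ES, 1.25 and 1.09 in ES_2i, 21.1 and 17.1 in NPC, 3.67 and 3.02 in iPS and 0.819 and 1.53 in iPS_2i. NPC was far above the rest, with a log2 change of 2.87 ± 0.35 from ES (SE, edgeR adjusted p = 2.64e-08). Auts2, a gene of neuronal development, rested on 1 to 12 counts per library and had a mean of 0.401 CPM in ES, 2.62 in NPC and 1.92 in iPS. Tyw1, which takes part in tRNA modification, had 114 and 109 CPM in ES and 44.5 and 49.6 in NPC, a fall by 1.06 ± 0.15 on the log2 scale (edgeR adjusted p = 5.29e-07).

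All 6 genes were called between NPC and ES, 5 higher and 1 lower, where 61.0% of the 11031 tested models were. Between iPS and NPC 5 were called (2 higher and 3 lower; 51.3% of models), between iPS and ES 4, all higher (52.9%), and between ES_2i and ES 2, both lower (24.5%). Between iPS_2i and iPS 5 were called, all lower (42.6%), between iPS_2i and ES_2i 1, higher (25.3%), and for the difference in the 2i response 1, lower (27.3%). Gatsl2 followed NPC, with 9.56 and 10.2 CPM in ES, 36.2 and 43.6 in NPC and 17.3 and 17.0 in iPS. Wbscr16 was highest in iPS, at 218 and 173 CPM against 78.2 to 147 in the other groups. Without NPC replicate 2 only 3 of the 6 were called between NPC and ES, and without ES replicate 1 only 2 of 4 between iPS and ES; without iPS replicate 1 or iPS_2i replicate 1 it was 2 of 5 between iPS_2i and iPS, and without ES replicate 1 or either ES_2i library 1 of 2 between ES_2i and ES.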

How the data were processed

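The 5C counts are whole-number counts per primer pair as the authors deposited them. The submitters' processing notes name Bowtie and mm9 for 5C. RNA counts per transcript model were deposited by the authors in the format of HTSeq, with TopHat, TopHat2 2.1.0 and mm9 named in the same notes; 76.4% to 97.1% of RNA counts were in no model, ambiguous or not unique and stayed out. The authors' binned contacts hold logarithms whose base is not given in the sources used here, and their range was taken to be that of log2. The log2 values were normalized and binned by the authors before deposit.

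Pairs within regions were tested with edgeR 4.0.16 (R 4.3.3), with the log total of the library, region and distance stratum (20 strata) as offset, a mean count of at least 10, Benjamini-Hochberg adjustment and a threshold of 0.05; the common coefficient of variation was 0.328. DESeq2 1.42.0, other scalings, strata, filters and left-out libraries were alternatives. Binned values were tested with limma 3.58.1 on bin pairs with a value in every library (152941 of 294926), and RNA with edgeR, TMM scaling and its expression filter. Slopes and shares were tested by exact permutation over libraries (scipy 1.17.1). Primer terms came from iterative proportional fitting per library and region. Scripts were tested on simulated data. Named pairs are those with the largest absolute change among the called (up to 5 a comparison; the 3 smallest p where none), and the highest and lowest by observed over expected count. The members and lists were chosen with earlier results of these data known. Marker lists covered ES and iPS cells, neural progenitors, feeder fibroblasts, neurons and astrocytes.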

Additional observations from a re-analysis of the deposited data

Results flagged for a closer look

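The 2i response of 13 desert pairs differed between iPS and ES cells by the interaction term of edgeR's quasi-likelihood test, or 2.14% of the desert against 1.96% of the series. The largest differences (iPS minus ES, log2) were 2.98 for FOR_67 with REV_21, -2.82 for FOR_45 with REV_40, -2.64 for FOR_33 with REV_40, -2.55 for FOR_49 with REV_40 and -2.43 for FOR_39 with REV_40. Leaving out 1 library gave 2.54 to 3.67, -3.26 to -2.20, -3.04 to -2.26, -2.83 to -2.32 and -2.58 to -2.29 in the same order. In some of these fits FOR_67 with REV_21 and FOR_45 and FOR_49 with REV_40 lost their call. With primer terms in the offset 0 pairs differed, with 26 at an unadjusted p under 0.05 and 2 of 75889 called in the series. Without REV_40 it was 4 of 583 in the desert and 1457 of 75864 in the series. DESeq2 called 35 of 608 in the desert and 3273 of 75889 in the series.

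Wbscr16 RNA also responded differently to 2i in iPS and ES cells, by -0.74 ± 0.19 (SE, log2, edgeR adjusted p = 0.00402). Its level was 84.5 and 78.2 CPM in ES, 93.7 and 105 in ES_2i, 218 and 173 in iPS and 138 and 147 in iPS_2i. Without iPS replicate 1 the difference was -0.57 and did not pass.

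Counts of 2 forward or 2 reverse primers, which the 5C design should not join and which no comparison used, made up 0.096% to 0.683% of desert counts. The highest value was in ES replicate 1. Reverse pairs held 185 to 2336 of these counts per library and forward pairs 26 to 162.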

How the results depend on the processing

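The 2 libraries of each group limit every test here, and for pairs of few counts, such as FOR_67 with REV_21, counting error adds to the spread between libraries. Of the alternatives tried for the main comparisons, 295 values kept their direction and side of the threshold or stayed within 1.5 times, 71 counts moved further, 10 values lost and 6 gained a call and 8 reversed. The cause of these changes was not tested unless the setting's own construction shows it.

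Without pairs under 20 kb the slope difference of NPC was -0.112 and lost its call, that of iPS against ES 0.120 gained one, and the desert minus each other region reversed (Klf4 0.010, Nanog 0.100, Nestin 0.122, Oct4 0.027, Olig1-Olig2 0.0018, Sox2 0.0020), as did 2i against serum on the relative scale (0.0054), where the 5 groups accounted for 0.954 of the variance and lost the call. With single pairs that share was 0.904, without a call. With neighbouring pairs left out Klf4 was 0.016, Nanog -0.00234, Nestin -0.0337, Olig1-Olig2 -0.0331 and Sox2 -0.0347. Klf4 gained a call with 20 strata (-0.062), single pairs (-0.048) and Poisson regression (-0.048), and the latter gave 2i against serum -0.244, with a call. Leaving out 1 library, the NPC difference ran from -0.309 to -0.259 and 2i against serum from -0.215 to -0.157.

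Counts of called desert pairs were 206 by TMM, 207 by DESeq2 size factors and 33 with primer terms for NPC against ES. For iPS against NPC they were 96, 97 and 23, and 2 without neighbouring pairs or with those groups alone. With primer terms iPS against ES had 0 and ES_2i against ES 1, and without REV_40 iPS against ES had 28. The 2i interaction had 35 by DESeq2, 20 with its own groups alone, 4 without REV_40 and 0 with primer terms. The series then had 3273 of 75889, 1988 of 76922, 1457 of 75864 and 2 of 75889 pairs called. Leaving out 1 library of the groups compared gave 49 to 91 for NPC against ES, 0 to 8 for iPS against NPC, 9 to 28 for iPS against ES, 25 to 54 for ES_2i against ES and 3 to 18 for the interaction.

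For binned contacts, bins that do not overlap gave 4, 2, 0 and 11 calls for NPC against ES, iPS against NPC, iPS against ES and ES_2i against ES. The shares over the series were then 31.2%, 21.1%, 3.75% and 18.7%. With limma's trend there were 90 calls for iPS against NPC (23.3% of the series), 109 for iPS against ES (5.7%) and 8 for the interaction (2.22%). Leaving out 1 library of the groups compared gave 67 to 110, 0 to 51, 2 to 29, 14 to 202 and, for the interaction, 0 to 2. For flanking RNA it gave 3 to 6 (NPC against ES), 2 to 4 (iPS against ES), 1 to 2 (ES_2i against ES), 2 to 5 (iPS_2i against iPS) and 0 to 2 (interaction).

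The deviations of same-numbered libraries had correlations from -0.040 to 0.159 over all regions, above 0.1 in 2 of 10 pairs of groups, and from -0.156 to 0.286 in the desert, above 0.1 in 4 of 10. Not every pair was above 0.1, so the numbers were not taken as a pairing. With the replicate number as a block the desert calls were 121 for NPC against ES, 57 for iPS against ES, 115 for ES_2i against ES, 11 for iPS against NPC, 0 for iPS_2i against iPS and against ES_2i, 23 for the interaction, and 6 for the interaction in binned contacts; the other counts stayed within 1.5 times.

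With primer terms FOR_70 with REV_40 reversed to -0.043 (NPC against ES) and -0.65 (iPS against ES), and FOR_41 with REV_44 to 0.11 (iPS against NPC). Between iPS and NPC FOR_61 with REV_66, FOR_47 with REV_50 and FOR_70 with REV_66 reversed to -1.002, -1.14 and -1.13 by TMM and to -1.03, -1.17 and -1.16 by DESeq2 size factors.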

Other observations

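The 10 most abundant of the 625 desert pairs held 26.4% to 37.1% of desert counts in a library, lowest in both iPS libraries and highest in both NPC libraries. The 45 pairs of neighbouring fragments held 50.9% to 77.9%, with iPS replicate 1 lowest and both NPC libraries highest.

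FOR_47 and FOR_53 also led the contacts of the desert with other chromosomes among the named fragments, with 4.15% to 8.88% and 3.94% to 6.87% of them, and both had their 2 highest values in ES. REV_60, the weakest fragment inside the desert, held 0.28% to 0.88% of them.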
